A study of Mus musculus with 12 samples.

Results

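Mitosis and chromosome segregation genes encode the machinery that divides a cell once its DNA has been copied. The 49 genes examined here were taken from a named list, each at the array probe with the highest mean signal, out of 24232 named genes on the array, and all 49 had a probe. They were grouped by role into 9 genes of mitotic entry, 4 of the chromosomal passenger complex, 8 of the kinetochore and spindle checkpoint, 11 spindle motors and assembly factors, 7 genes of chromosome structure, 4 of anaphase and 6 of cytokinesis. Expression was measured in bone marrow-derived dendritic cells (DCs) of female C57BL/6 mice, in 4 groups of 3 arrays. DC Young came from young mice (2 months) given no agent, DC Dysbiotic from young mice (2 months) that drank an antibiotic cocktail of ampicillin, neomycin, metronidazole and vancomycin, which disrupts the gut microbiota, DC Old from old mice (24 months) given no agent, and DC Old-LP from old mice (24 months) gavaged with the gut bacterium Lactobacillus plantarum (LP). All 4 groups were grown in GM-CSF (2 ng/mL) and IL-4 (4 ng/mL), harvested on day 7 as loosely adherent cells and stimulated with lipopolysaccharide (LPS), a bacterial cell wall component, at 1 μg/mL for 24 h. Each array carried RNA of a pool of 3 mice, and no sort of the cells before RNA isolation is given in the sources used here, so the cultures could hold other cells of the marrow.

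Cells enter mitosis when the kinase Cdk1, bound to a B-type cyclin, becomes active. Kinetochores then attach each chromosome to spindle microtubules, the spindle checkpoint holds the cell until all are attached, and the anaphase-promoting complex with its activator Cdc20 releases the sister chromatids before cytokinesis parts the daughter cells. Transcripts of these genes accumulate late in the cell cycle and are low in resting cells, so their level in a tissue or culture commonly follows the share of dividing cells. DCs grown from marrow with GM-CSF arise from dividing progenitors, and mature DCs divide little. In these bulk samples fewer dividing cells and less RNA per dividing cell cannot be told apart.

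Late cell cycle genes are known for a short promoter element, the cell cycle homology region, whose letters are TTTGAA or, as a variant, TTCGAA. It lies near the transcription start, often downstream of a CCAAT box, and is bound by the MuvB complex, which represses the genes as the DREAM complex in resting cells and activates them with B-Myb and Foxm1 in dividing cells. Promoters of 300 bases, from 250 before to 50 after the annotated start, were read from RefSeq (GRCm38.p6), where 41 of the 49 members had an entry. The promoters of 6 members are shown here, 5 of them genes with a called difference in both main comparisons and with a match to the homology region, and Plk4 as a member without a match. Each runs 5′ to 3′ in the direction of the gene, and capitals mark the homology region or the CCAAT box on either strand.
Kif11, chr19:37376132-37376431, plus strand: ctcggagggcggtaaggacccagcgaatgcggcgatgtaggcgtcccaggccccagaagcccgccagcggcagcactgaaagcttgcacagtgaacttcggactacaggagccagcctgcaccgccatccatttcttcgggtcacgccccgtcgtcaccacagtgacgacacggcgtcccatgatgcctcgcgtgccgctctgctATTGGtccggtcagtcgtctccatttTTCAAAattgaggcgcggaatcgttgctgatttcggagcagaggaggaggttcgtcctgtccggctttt
Ncapg, chr5:45669675-45669974, plus strand: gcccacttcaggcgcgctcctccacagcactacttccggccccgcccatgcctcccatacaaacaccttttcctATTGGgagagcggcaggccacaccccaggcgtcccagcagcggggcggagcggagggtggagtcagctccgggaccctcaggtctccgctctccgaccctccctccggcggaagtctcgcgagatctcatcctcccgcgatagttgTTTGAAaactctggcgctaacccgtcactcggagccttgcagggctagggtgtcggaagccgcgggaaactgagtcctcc
Kif23, chr9:61946750-61947049, minus strand: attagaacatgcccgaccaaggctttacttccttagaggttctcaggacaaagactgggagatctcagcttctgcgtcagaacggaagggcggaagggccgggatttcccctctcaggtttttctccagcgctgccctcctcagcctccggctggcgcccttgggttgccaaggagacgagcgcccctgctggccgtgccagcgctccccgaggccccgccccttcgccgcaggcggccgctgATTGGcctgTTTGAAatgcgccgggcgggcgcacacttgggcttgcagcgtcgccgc
Kif20b, chr19:34922108-34922407, plus strand: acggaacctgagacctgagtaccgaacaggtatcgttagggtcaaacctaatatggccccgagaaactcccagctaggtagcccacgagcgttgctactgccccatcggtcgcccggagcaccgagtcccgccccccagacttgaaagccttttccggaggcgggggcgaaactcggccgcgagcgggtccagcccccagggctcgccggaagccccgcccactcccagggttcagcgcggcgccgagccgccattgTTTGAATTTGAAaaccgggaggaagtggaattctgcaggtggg
Top2a, chr11:99024140-99024439, minus strand: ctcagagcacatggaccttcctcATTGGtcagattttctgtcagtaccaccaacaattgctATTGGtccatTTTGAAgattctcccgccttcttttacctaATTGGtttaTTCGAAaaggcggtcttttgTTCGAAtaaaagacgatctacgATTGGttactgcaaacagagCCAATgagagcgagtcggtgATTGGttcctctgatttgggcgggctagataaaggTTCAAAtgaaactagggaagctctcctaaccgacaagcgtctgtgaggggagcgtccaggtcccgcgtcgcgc
Plk4, chr3:40799701-40800000, plus strand: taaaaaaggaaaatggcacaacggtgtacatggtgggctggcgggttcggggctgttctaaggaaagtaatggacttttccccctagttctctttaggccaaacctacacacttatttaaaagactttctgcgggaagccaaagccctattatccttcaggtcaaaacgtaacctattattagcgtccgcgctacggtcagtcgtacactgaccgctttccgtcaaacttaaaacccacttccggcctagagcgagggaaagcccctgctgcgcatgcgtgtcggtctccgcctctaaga

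In Kif11 the homology region lay on the opposite strand with its first base 19 bases before the start, and a CCAAT box, also on the opposite strand, began 45 bases before the start. Kif23 held both elements within the bases around the start, and Kif20b held 2 homology regions side by side, 8 and 14 bases after the start. Ncapg held a single homology region 30 bases before the start and a CCAAT box far upstream of it. Top2a held 4 homology regions and 6 CCAAT boxes, and in Plk4 neither set of letters occurred in this window. Over the 41 members with an entry, 32 (78.0%) held TTTGAA or TTCGAA on either strand, against 19.2% of the 32851 promoters of the table. TTTGAA alone was found in 31 members (75.6%) and in 17.9% of all promoters, and TTCGAA, which reads the same on both strands, in 3 members (7.32%) and in 1.56% of all promoters. The letters CCAAT were found in 29 members (70.7%) and in 37.4% of all promoters. With its first base within 50 bases of the start, a homology region was found in 29 members (70.7%), against 5.31% of all promoters. These matches are a description of the sequence, and no binding was measured in these cultures. Because the genes were listed as mitotic genes, which are known to carry this element, its frequency is no finding about age or the gut microbiota.

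**Figure D1:**
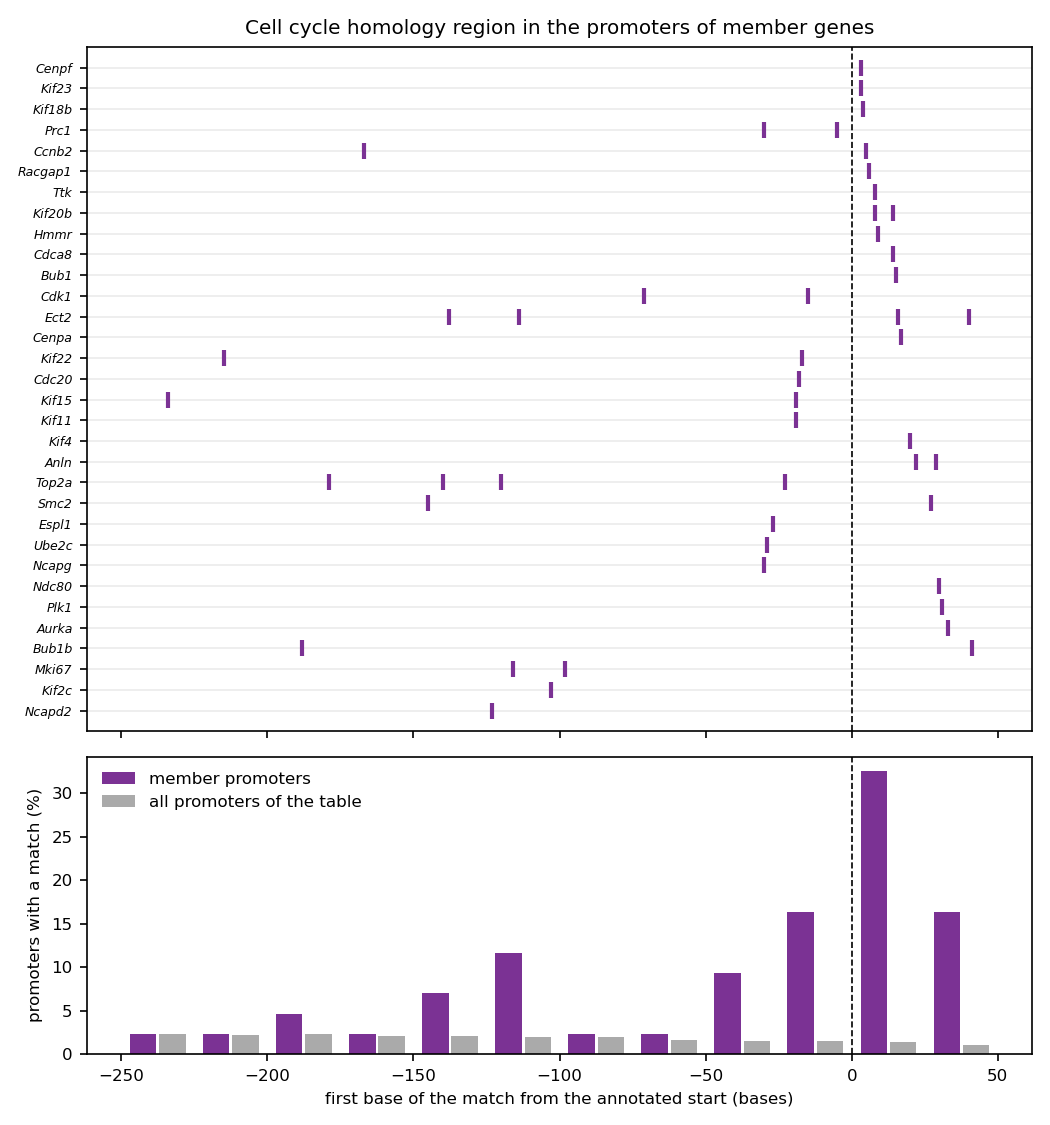
Position of the cell cycle homology region in the promoters of the 32 members that held it, as the distance of its first base from the annotated start in bases (top), and the share of promoters with a match in each window of 25 bases for the 43 promoters of members and for all 32851 promoters (bottom). The share among members is highest, 32.6%, in the window just after the start, where it is 1.43% over all promoters.

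The arrays lay on 3 slides, with replicates A and B of all groups on slide 1, replicate C of the young groups on slide 2 and that of the old groups on slide 3. On the A and B arrays 61.2 to 66.4% of spots were well above background and all 49 members were, whereas on the C arrays 37.3 to 46.0% of spots were, with 44 members in DC Young, 43 in DC Dysbiotic, 33 in DC Old, with 42 in DC Old-LP. Of the 49 members, 33 were well above background on all 12 arrays. Of 14 DC markers, 12 were well above background on every array, including Itgax, Cd74, H2-Ab1, Ccr7 and Fscn1, and the median over the 14 of their log2 fold changes with age was -0.02, with H2-Ab1 called higher and Cd86 lower. Values are log2 intensities after quantile normalization, so a difference of 1 is a doubling. The replicate letter was a term of the fit, and a gene was called where limma's p, adjusted by the method of Benjamini and Hochberg over all 56605 probes, did not exceed 0.05 and the log2 fold change was 0.5 or more in size.

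The first question was whether age changes the level of these genes in DCs, and differences between DC Old and DC Young are called differences with age. Compared with DC Young, 48 of the 49 members had a lower mean in DC Old, with a median log2 fold change of -1.02 against 0.00 over all named genes. Of these, 11 were called lower and 0 higher, which is 22.4% of the members, where 1.42% of all named genes were called lower and 1.64% higher. The called genes were Foxm1, Birc5, Ttk, Cenpe, Kif11, Kif20b, Nusap1, Ncapg, Top2a, Ect2 and Kif23, which come from all roles except anaphase, and in each of them the 3 arrays of DC Old lay below the 3 of DC Young. The groups did not overlap in 26 members, all lower in DC Old, and in 5.62% of all named genes in that direction. Without the replicate letter in the fit, 2 members were called lower (Foxm1 and Kif11), where 0.289% of named genes were.

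The size of the difference varied with the replicate letter. On C, DC Young lay on slide 2 and DC Old on slide 3, so age and slide cannot be told apart there. The replicate letter in the fit does not separate them. DC Old and DC Old-LP shared a slide for every letter. The median over the members of the difference between the DC Old and the DC Young array was -1.18 on the A arrays, -1.23 on B and -0.47 on C, where 48, 49 and 42 members were lower. Within slide 1 alone, 41 members were called lower, where 5.42% of named genes were, and without the C array of DC Old 30 members were called, where 2.64% were. Leaving out C of DC Old-LP gave 22 calls, where 1.89% of named genes were called lower. Any single A or B array left out gave 2 to 7, where 0.297 to 0.867% were. A and B of a group correlated at r of 0.992 to 0.995 across probes, and C with either at 0.900 to 0.950. Averaging A and B of a group into 1 value left 0 called by limma and 25 lower before adjustment, that is, with an unadjusted p not above 0.05 and the same fold threshold.

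**Figure D2:**
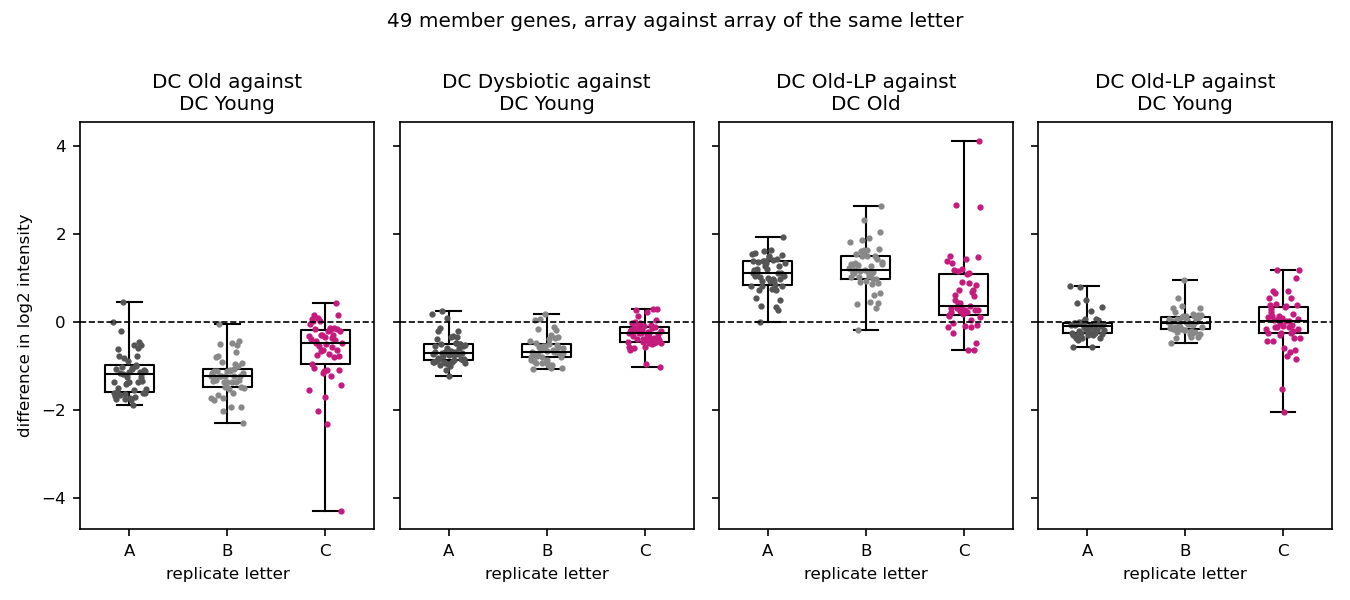
Difference in log2 intensity between arrays of the same replicate letter for the 49 members, in 4 comparisons. Each point is a gene, the box spans the middle of the genes with the median as a line, and the whiskers reach the lowest and highest gene. The medians on A and B are -1.18 and -1.23 for DC Old against DC Young and 1.11 and 1.19 for DC Old-LP against DC Old, and on C they are -0.47 and 0.37.

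The second question was whether LP given to old mice changes these genes in their DCs, and differences between DC Old-LP and DC Old are called differences with LP. All 49 members had a higher mean in DC Old-LP than in DC Old, with a median log2 fold change of 0.96 against 0.01 over all named genes. Of the members 13 were called higher and 0 lower, where 1.18% of named genes were called higher and 1.20% lower. They were Foxm1, Plk4, Birc5, Bub1, Kif11, Kif15, Kif20b, Nusap1, Ncapg, Top2a, Ect2, Kif23 and Kif20a. Both comparisons use the same 3 arrays of DC Old, so a low reading there moves both. Per letter the median difference was 1.11 on A, 1.19 on B and 0.37 on C, where 48, 48 and 40 members were higher. The groups did not overlap in 21 members, all higher in DC Old-LP, and in 6.14% of named genes in that direction. Without the replicate letter in the fit only Kif11 was called, where 0.202% of named genes were, within slide 1 40 members were called, where 4.91% of named genes were, and with A and B averaged 0 were called and 17 were higher before adjustment. Leaving out C of DC Old gave 28 calls, where 2.42% of named genes were called higher, and C of DC Dysbiotic 8, where 0.908% were. Any single A or B array left out gave 1 to 7, where 0.206 to 0.594% were.

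**Figure D3:**
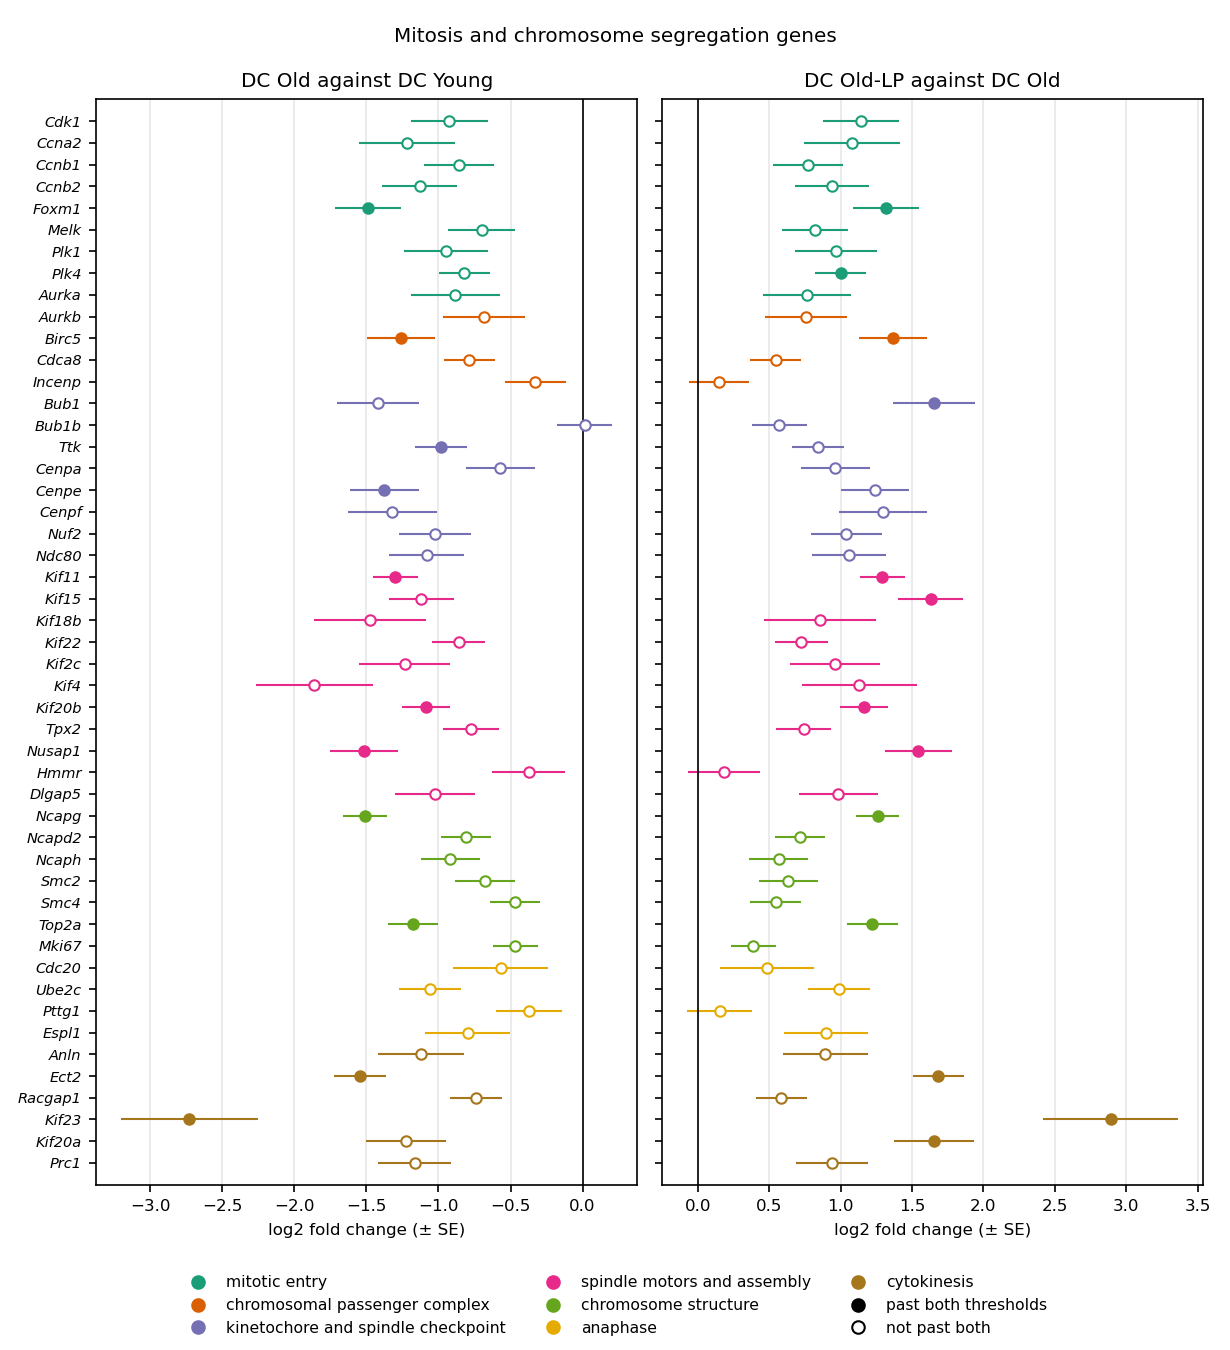
Log2 fold change with its standard error for the 49 members, coloured by role, in DC Old against DC Young (left) and DC Old-LP against DC Old (right). Filled points are past both thresholds, 11 on the left and 13 on the right. All members except Bub1b (0.01) lie below 0 on the left, and all 49 lie above 0 on the right.

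The third question was whether antibiotics given to young mice do the same as age. In DC Dysbiotic 48 of the 49 members had a lower mean than in DC Young, with a median log2 fold change of -0.54 against -0.01 over all named genes, but 0 members were called by limma, where 0.264% of named genes were called lower and 1.11% higher. Before adjustment, 20 members passed both thresholds, all lower, and the smallest adjusted p was 0.111, for Ncapg. That count of 20 was 4 without the replicate letter, 1 with A and B averaged and 6 to 25 with each array left out, lowest without A of DC Young. The per letter medians were -0.71, -0.67 and -0.25, and in 40 members the DC Dysbiotic array was lower for all 3 letters. Within slide 1, 28 members were called lower, where 2.84% of named genes were called lower and 3.75% higher. Directly compared, DC Old was lower than DC Dysbiotic in all 49 means, with a median of -0.45, 0 members called, 17 lower before adjustment and 0.00413% of named genes called lower. DC Old-LP was higher than DC Dysbiotic in 48 members, with a median of 0.48, 0 called, 14 higher unadjusted and 0.120% of named genes called higher. Between DC Old-LP and DC Young the median was -0.04, with a range of -0.73 for Kif4 to 0.58 for Bub1b. Here 0 members were called, 1 was higher and 0 lower unadjusted, and the share of named genes called was 0% in either direction. The mean was lowest in DC Old for 48 members and highest in DC Young for 30 and in DC Old-LP for 19.

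Values on every array are given below for 19 members, always in the order A, B, C, chosen as the called genes with the largest differences or as the best known genes of a role.

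Among the genes of mitotic entry, all 9 had a lower mean in DC Old than in DC Young (-0.70 for Melk to -1.49 for Foxm1, median -0.93), and all 9 a higher mean in DC Old-LP than in DC Old (0.76 for Aurka to 1.32 for Foxm1, median 0.97). Foxm1, the transcription factor that activates late cell cycle genes, read 8.30, 8.27 and 7.82 in DC Young, 7.62, 7.19 and 7.63 in DC Dysbiotic, 6.55, 6.50 and 6.87 in DC Old, with 7.73, 7.79 and 8.37 in DC Old-LP. Every array of DC Old lay below every array of the other groups, and Foxm1 fell in DC Old (log2 fold change -1.49, SE 0.230, adjusted p 0.0179) and rose in DC Old-LP (1.32, SE 0.230, adjusted p 0.0364). The C array of DC Old was not well above background for Foxm1, and a dimmer probe of the gene, well above background on 3 arrays, gave -0.20 (adjusted p 0.933) and 0.26 (adjusted p 0.892). Plk4, the kinase that starts the duplication of centrioles, read 6.98, 6.81 and 7.17 in DC Young, 6.60, 6.86 and 6.84 in DC Dysbiotic, 6.37, 6.00 and 6.12 in DC Old, with 6.92, 7.13 and 7.45 in DC Old-LP. It rose in DC Old-LP against DC Old (1.00, SE 0.177, adjusted p 0.0385), and its difference of -0.82 (SE 0.177) between DC Old and DC Young had an adjusted p of 0.0671. The C array of DC Old was not well above background for Plk4.

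Cdk1, the kinase of mitotic entry, read 7.67, 8.24 and 7.84 in DC Young, 7.84, 7.81 and 7.39 in DC Dysbiotic, 7.66, 7.03 and 6.29 in DC Old, with 8.48, 8.25 and 7.67 in DC Old-LP. The A array of DC Old equalled that of DC Young within 0.01, and the difference of -0.93 (SE 0.266) had an adjusted p of 0.171. The C array of DC Old was not well above background at this probe. The further probe of Cdk1, well above background on all 12 arrays, went the other way without a call, by 0.18 with age and by -0.30 with LP. Ccnb1, the cyclin that activates Cdk1, read 8.80, 8.69 and 9.39 in DC Young, 8.08, 7.90 and 9.13 in DC Dysbiotic, 7.43, 7.53 and 9.35 in DC Old, with 8.55, 8.56 and 9.51 in DC Old-LP. Plk1, a kinase with roles from mitotic entry to cytokinesis, read 10.15, 10.15 and 10.46 in DC Young, 9.26, 9.28 and 10.43 in DC Dysbiotic, 8.57, 8.88 and 10.47 in DC Old, with 10.12, 10.00 and 10.70 in DC Old-LP. In both genes A and B of DC Old were the lowest arrays of all, while the C arrays of DC Young, DC Dysbiotic and DC Old lay close together, and neither passed the test in DC Old against DC Young (adjusted p 0.166 for Ccnb1 and 0.200 for Plk1). The other members of this role, Ccna2, Ccnb2, Melk and Aurka, were not called in either comparison.

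The chromosomal passenger complex corrects faulty attachments of chromosomes and later guides cytokinesis. Birc5, its survivin subunit, read 11.65, 11.59 and 11.78 in DC Young, 10.80, 10.81 and 11.77 in DC Dysbiotic, 9.99, 9.93 and 11.31 in DC Old, with 11.36, 11.48 and 12.49 in DC Old-LP. Its level fell in DC Old (-1.26, SE 0.238, adjusted p 0.0409) and rose in DC Old-LP (1.37, SE 0.238, adjusted p 0.0364), and for each letter the DC Old array was the lowest. Aurkb, the kinase of the complex, read 8.28, 8.50 and 8.35 in DC Young, 8.08, 8.02 and 8.22 in DC Dysbiotic, 7.51, 7.40 and 8.18 in DC Old, with 8.70, 8.72 and 7.93 in DC Old-LP. The DC Old arrays lay below those of DC Young, but the C array of DC Old-LP lay below that of DC Old, and Aurkb was not called (adjusted p 0.373 and 0.327). Incenp, the scaffold of the complex, differed least of the 4, by -0.33 with age and by 0.15 with LP, and Cdca8 differed by -0.79 and 0.55, neither called.

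The kinetochore and spindle checkpoint held the member that stood apart. Bub1b, the checkpoint protein BubR1, read 7.07, 7.41 and 7.33 in DC Young, 7.33, 7.47 and 7.46 in DC Dysbiotic, 7.52, 6.92 and 7.42 in DC Old, with 7.88, 7.94 and 7.74 in DC Old-LP. DC Young, DC Dysbiotic and DC Old overlapped, with a difference of 0.01 (SE 0.193) between DC Old and DC Young, and the DC Old-LP arrays lay above all others, without a call against DC Old (0.57, adjusted p 0.272) or DC Young (0.58, adjusted p 1.00). Its paralogue Bub1, the kinase that recruits checkpoint proteins to kinetochores, read 7.74, 7.72 and 7.29 in DC Young, 7.25, 7.15 and 6.92 in DC Dysbiotic, 6.73, 6.49 and 5.28 in DC Old, with 7.74, 7.78 and 7.94 in DC Old-LP. Bub1 rose with LP (1.65, SE 0.285, adjusted p 0.0342), its difference of -1.42 with age (SE 0.285) had an adjusted p of 0.0515, and the lowest reading, C of DC Old, was not well above background. Cenpf, a large protein of the outer kinetochore, read 8.42, 8.39 and 8.77 in DC Young, 7.49, 7.60 and 8.54 in DC Dysbiotic, 6.79, 6.38 and 8.47 in DC Old, with 8.39, 8.23 and 8.91 in DC Old-LP. It showed differences over 1.5 on A and B of DC Old and a small one on C, and was not called (-1.32, adjusted p 0.0861). Cenpe, the kinetochore motor, fell by 1.38 (SE 0.240, adjusted p 0.0290) and Ttk, the kinase Mps1 that starts the checkpoint, fell by 0.99 (SE 0.181, adjusted p 0.0361) in DC Old, and Cenpa, Nuf2 and Ndc80 were 0.57 to 1.08 lower without a call. The C arrays of DC Old and DC Old-LP were not well above background for Ttk.

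The spindle motors and assembly factors, the largest role with 11 genes, held the most calls, 3 with age and 4 with LP. Cytokinesis, with 6 genes, held 2 and 3. Kif11, the motor that pushes the spindle poles apart, read 6.67, 6.66 and 6.75 in DC Young, 6.09, 6.11 and 6.30 in DC Dysbiotic, 5.42, 5.18 and 5.60 in DC Old, with 6.75, 6.81 and 6.51 in DC Old-LP. The 3 arrays of each group lay close together, DC Old lay below DC Dysbiotic and DC Dysbiotic below DC Young and DC Old-LP, and the latter pair overlapped. The C array of DC Old was not well above background for Kif11. Kif11 fell in DC Old (-1.30, SE 0.158, adjusted p 0.00659) and rose in DC Old-LP (1.29, SE 0.158, adjusted p 0.00926), and it was the member called in both comparisons also without the replicate letter. In DC Dysbiotic its difference was -0.53 (SE 0.158, adjusted p 0.262). Nusap1, which bundles microtubules around chromosomes, read 9.03, 8.93 and 9.07 in DC Young, 8.11, 7.96 and 8.85 in DC Dysbiotic, 7.14, 7.00 and 8.34 in DC Old, with 8.77, 8.90 and 9.44 in DC Old-LP. Its level fell in DC Old (-1.52, SE 0.235, adjusted p 0.0179) and rose in DC Old-LP (1.54, SE 0.235, adjusted p 0.0214). Kif20b fell by 1.09 and rose by 1.16 in the same comparisons, and Kif15, which can back up Kif11 in the spindle, rose by 1.63 in DC Old-LP (adjusted p 0.0149). The C array of DC Old was not well above background for Kif20b, nor was the C array of any group for Kif15. The other 7 genes of the role were not called, and they ranged from -1.86 (Kif4) to -0.38 (Hmmr) in DC Old against DC Young.

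Genes of chromosome structure compact and disentangle the chromosomes. Ncapg, a subunit of condensin I, read 9.23, 9.25 and 9.78 in DC Young, 8.48, 8.28 and 9.42 in DC Dysbiotic, 7.54, 7.64 and 8.56 in DC Old, with 8.93, 8.91 and 9.67 in DC Old-LP. This gene was the member with the smallest adjusted p with age (-1.51, SE 0.151, adjusted p 0.00300), it rose in DC Old-LP (1.26, SE 0.151, adjusted p 0.00868), and the DC Old array was the lowest for each letter. Top2a, the topoisomerase that untangles sister chromatids, read 10.67, 10.68 and 10.98 in DC Young, 9.95, 10.00 and 10.62 in DC Dysbiotic, 9.31, 9.32 and 10.17 in DC Old, with 10.74, 10.82 and 10.90 in DC Old-LP. Its level fell in DC Old (-1.18, SE 0.176, adjusted p 0.0155) and rose in DC Old-LP (1.22, SE 0.176, adjusted p 0.0171). Mki67, the Ki-67 protein that coats mitotic chromosomes and is widely used as a mark of dividing cells, read 11.88, 11.94 and 11.70 in DC Young, 11.68, 11.76 and 11.23 in DC Dysbiotic, 11.43, 11.41 and 11.28 in DC Old, with 11.69, 11.72 and 11.88 in DC Old-LP. DC Old lay below DC Young and DC Old-LP on every array, by a small difference that was not called (-0.47, SE 0.159, adjusted p 0.260, and 0.39, adjusted p 0.369). The other condensin subunits, Ncapd2, Ncaph, Smc2 and Smc4, were 0.47 to 0.92 lower in DC Old and 0.54 to 0.72 higher in DC Old-LP without a call.

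No gene of anaphase was called in either comparison. Cdc20, the activator of the anaphase-promoting complex, read 10.41, 10.34 and 11.72 in DC Young, 9.82, 9.81 and 11.62 in DC Dysbiotic, 9.27, 9.35 and 12.15 in DC Old, with 10.38, 10.33 and 11.51 in DC Old-LP. A and B of DC Old were the lowest arrays and its C array was the highest of the 12, so the differences by letter were -1.14, -0.99 and 0.43. Ube2c, the ubiquitin-conjugating enzyme of the complex, differed by -1.06 with age (SE 0.216, adjusted p 0.0541), without overlap of DC Young and DC Old. Espl1, the protease separase, and Pttg1, its inhibitor securin, differed by -0.80 and -0.37.

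In cytokinesis, Kif23 and Racgap1 form the centralspindlin complex, which recruits Ect2 to activate RhoA and set the cleavage furrow. Ect2 read 7.47, 7.33 and 8.09 in DC Young, 6.92, 6.61 and 7.82 in DC Dysbiotic, 5.85, 5.41 and 7.00 in DC Old, with 7.37, 7.45 and 8.49 in DC Old-LP. This gene was well above background on all 12 arrays, fell in DC Old (-1.54, SE 0.178, adjusted p 0.00539) and rose in DC Old-LP (1.68, SE 0.178, adjusted p 0.00561), and both calls held with any single array left out. Kif23 read 6.83, 6.91 and 6.02 in DC Young, 5.99, 5.87 and 5.01 in DC Dysbiotic, 5.23, 4.61 and 1.75 in DC Old, with 7.17, 7.23 and 5.86 in DC Old-LP. It had the largest differences of the 49 (-2.73, SE 0.475, adjusted p 0.0290, and 2.89, SE 0.475, adjusted p 0.0286), and these rest in part on the C array of DC Old, which was not well above background, with differences by letter of -1.60, -2.30 and -4.28 against DC Young. Kif20a, the motor that carries the passenger complex to the midzone, read 7.41, 7.38 and 7.67 in DC Young, 6.89, 6.80 and 7.47 in DC Dysbiotic, 6.30, 6.24 and 6.24 in DC Old, with 7.36, 7.55 and 8.84 in DC Old-LP. It rose in DC Old-LP (1.66, SE 0.278, adjusted p 0.0311), and its difference of -1.23 in DC Old against DC Young had an adjusted p of 0.0793. The C array of DC Old was not well above background for Kif20a. Racgap1, Anln, which anchors the contractile ring, and Prc1, which crosslinks the microtubules of the midzone, were 0.74 to 1.16 lower in DC Old without a call.

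**Figure D4:**
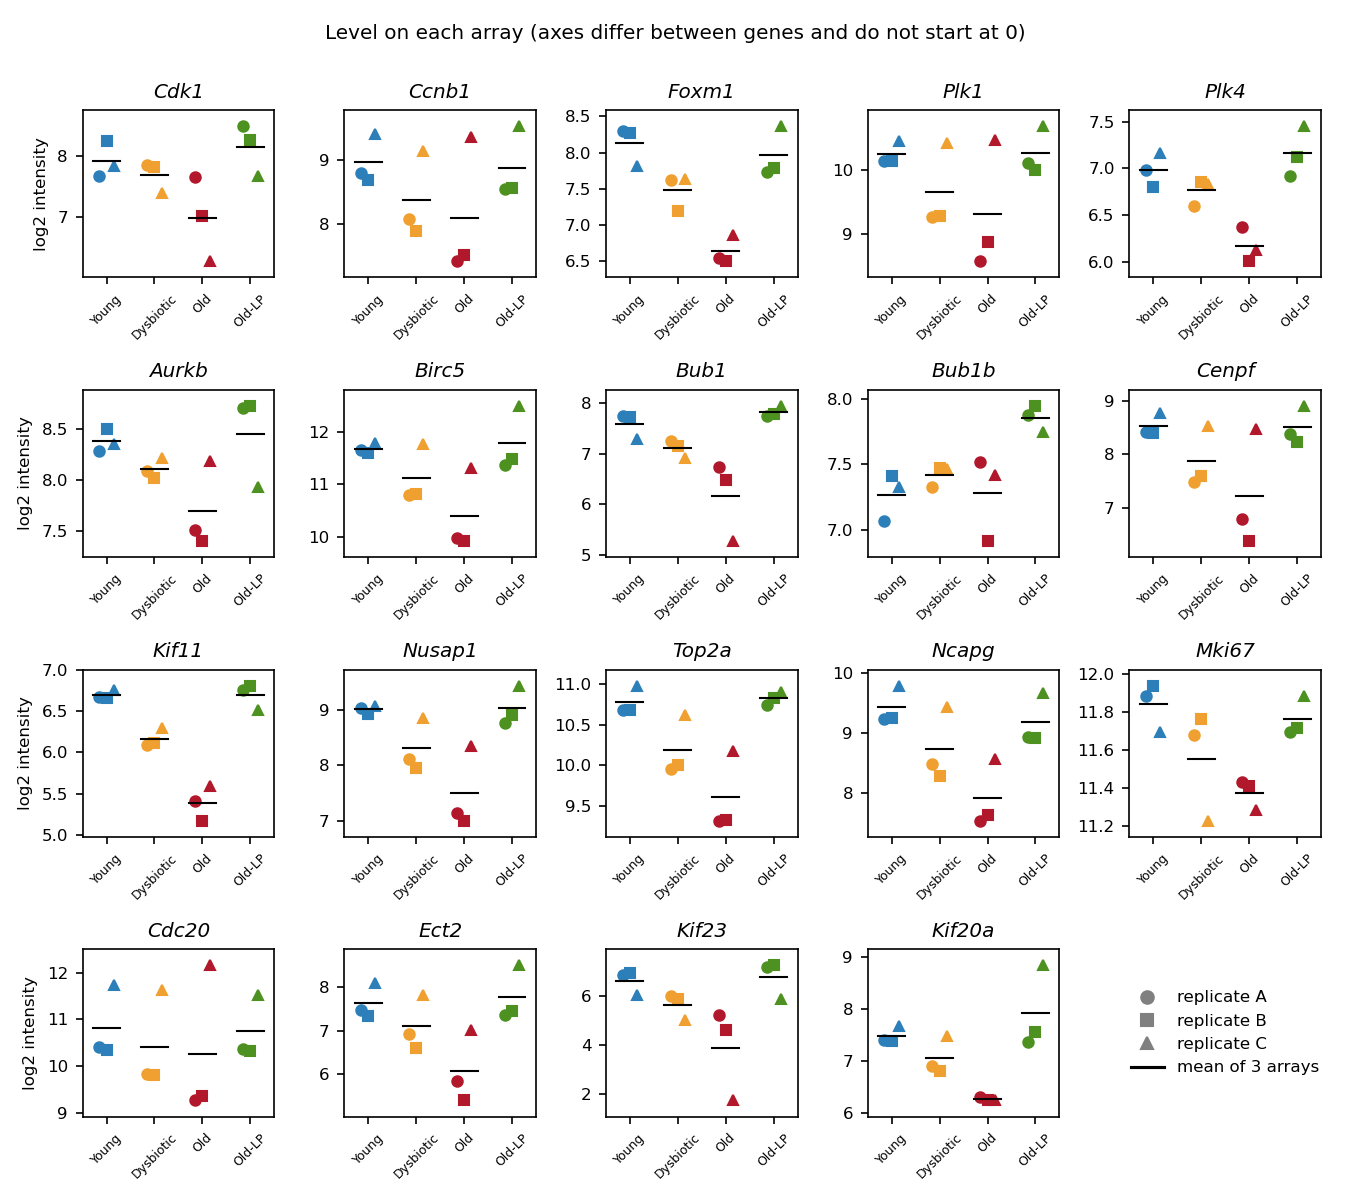
Level of 19 members on each array, as log2 intensity after quantile normalization. Colours mark the 4 groups, symbols the replicate letters, and the line is the mean of the 3 arrays of a group. A and B of DC Old lie below A and B of DC Young and DC Old-LP in most panels, with Bub1b and the A array of Cdk1 as exceptions, while the C arrays of the groups lie closer together in Ccnb1, Plk1 and Cenpf.

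Calls were also made among bright probes. Among the 33 members well above background on all 12 arrays, the median log2 fold change was -0.86 for age and 0.77 for LP, and 6 and 5 of them were called in these comparisons. Over the 10705 named genes as bright, the medians were -0.03 and 0.05. Over all named genes, 1.42% were called lower with age and 1.18% higher with LP. The share called among bright named genes, or among all further probes, was not counted. The array held 34 further probes for 26 of the members. With age 30 of these had the sign of the probe used and 5 were called, and with LP 31 had it and 4 were called. Of the further probes of called members, 8 with age and 10 with LP, all had the same sign, but 2 (Kif23 and Top2a) and 1 (Kif23) were called. Several were well above background on fewer arrays. With age the further probes of Ttk gave -0.42 and -0.78 and that of Kif20b -0.77, while those of Birc5 (-1.33, adjusted p 0.0612) and Ect2 (-0.93, adjusted p 0.109) missed the threshold. With LP the further probes of Plk4 gave 0.26 and 0.06, those of Kif15 gave 0.51 and 0.06, and that of Kif20b gave 0.53. With the mean over the probes of a gene, Foxm1 (-0.84), Ttk (-0.73) and Kif20b (-0.93) were no longer called with age, nor Foxm1 (0.79), Plk4 (0.44), Kif15 (0.73) and Kif20b (0.85) with LP. A further probe was called for Ccna2, Ccnb1 and Prc1, which were not called at the probe used, in both comparisons and in the same direction. Among called members with a further probe, only Kif23 in both comparisons and Top2a with age were thus called at it too. The calls of the others, and of Ccna2, Ccnb1 and Prc1, depended on the probe.

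Other genes of the cell cycle were read from 7 lists. Among 35 further kinetochore and centromere genes, 8 were called lower and 0 higher with age (median -0.51), and 7 were called higher and 0 lower with LP (median 0.51). Without the replicate letter 0 of this list and 0 of the DNA replication list were called in either comparison. The called kinetochore and centromere genes included Spc24, a subunit of the Ndc80 complex (-1.37, SE 0.210, and 1.30, SE 0.210), and Sgo1, which protects centromeric cohesion (-1.26 and 1.23). With age they included the centromere proteins Cenpm (-1.98) and Cenpk (-1.24), and Cenpk was also called higher with LP. Called with LP were also Oip5 (1.37), which helps to load Cenpa, and Ska1 (2.00), which couples kinetochores to microtubules. Among 34 genes of DNA replication, those called lower in DC Old included Rrm2 (-1.19), Cdc6 (-1.22) and Uhrf1 (-1.10), with a list median of -0.36, and those called higher in DC Old-LP included Rrm2 (1.16), with a list median of 0.38. Rrm2 is a subunit of ribonucleotide reductase and Cdc6 helps to load the replicative helicase. In the anaphase-promoting complex, cohesin and condensin II, MuvB and DREAM, and G1 lists, with 13, 13, 12 and 13 genes measured, limma called 0 in either comparison. Before adjustment these lists held 0, 1, 2 and 2 genes with age and 0, 1, 2 and 3 with LP. Their medians lay between -0.20 and -0.07 with age and between 0.02 and 0.31 with LP. The 2 brightest of each were Anapc5 (-0.12) and Anapc11 (-0.19), Smc1a (-0.35) and Wapl (-0.10), Rbbp4 (0.06) and Lin37 (-0.04), and Ccnd2 (-0.67) and Ccnd3 (0.18), each with its log2 fold change with age.

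The 8 genes listed as CDK inhibitors went different ways. Cdkn2b, the inhibitor p15 of the G1 kinases Cdk4 and Cdk6, rose in DC Old (1.11, SE 0.141, adjusted p 0.00794) and fell in DC Old-LP (-0.74, SE 0.141, adjusted p 0.0496). Cdkn3, a phosphatase that acts on CDKs and is itself known to be higher in dividing cells, fell in DC Old (-1.51, SE 0.205, adjusted p 0.0106) and rose in DC Old-LP (1.40, SE 0.205, adjusted p 0.0178). Cdkn2b was also called higher in DC Dysbiotic than in DC Young, and without the replicate letter the list kept 1 call, with age.

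Several lists of markers of other cell types also differed between the groups, some in the direction of the members and some in the opposite direction. Of 18 megakaryocyte and erythroid markers measured, 9 were called higher in DC Old and 8 in DC Dysbiotic against DC Young, and 9 lower with LP. Without the replicate letter these counts were 5, 3 and 2. Their summed intensity was 72478 to 83338 in DC Young, 129524 to 144607 in DC Dysbiotic, 128786 to 150772 in DC Old, with 80754 to 90327 in DC Old-LP. The platelet genes Itga2b, Gp1ba, Gp1bb and Gp9 were 2.36 to 2.83 higher in DC Old, while Alas2, a defining gene of red cell precursors, was not well above background on any array. Of the 18 markers, 6 went the other way with a lower mean in DC Old than in DC Young, 1 of them past both thresholds unadjusted. In DC Dysbiotic 5 had a lower mean than in DC Young, and with LP 4 had a higher mean. Of 8 stromal markers, 6 were called higher in DC Old and the same number in DC Dysbiotic, and 4 lower with LP (5, 4 and 2 without the replicate letter). Their summed intensity was 148 to 239 in DC Young, 1331 to 2156 in DC Dysbiotic, 1534 to 3479 in DC Old, with 301 to 755 in DC Old-LP, and Pdgfra was not well above background on any array. Only 1 of the 8 was well above background on every array, so the sums may rest in part on readings near background. Of 12 neutrophil and granulocyte precursor markers, 10 had a lower mean in DC Old with a median of -0.76, although only Cebpe was called lower and Camp was called higher, and in DC Old-LP 10 had a higher mean than in DC Old, with a median of 0.87, 0 called higher, 6 higher unadjusted and Camp called lower. Their summed intensity was 40564 to 64691 in DC Young, 26735 to 50223 in DC Dysbiotic, 21406 to 76034 in DC Old, with 44895 to 69086 in DC Old-LP. Of 9 T cell markers measured, 8 had a lower mean in DC Old, with a median of -1.10 and 0 called (5 lower unadjusted), at summed intensities of 26936 to 47401, 23300 to 47152, 12795 to 17247 and 25119 to 33810 in the same order of groups. Of 11 progenitor markers Meis1 and Angpt1 were called higher and Gfi1 lower with age, and Meis1 and Angpt1 lower with LP, and their sum was 1.41 to 1.67 times that of the DC Young array of the same letter in DC Old and 0.923 to 1.19 times in DC Old-LP. Of 11 mast cell and basophil markers 8 had a lower mean with age and 0 were called (2 lower before adjustment), while with LP all 11 had a higher mean and Ms4a2 was called higher. Their sum in DC Old was 0.656, 0.573 and 1.30 times that of DC Young on A, B and C, and in DC Old-LP it was 1.16, 1.08 and 0.862 times. Of 10 B cell markers measured 0 were called in either comparison (0 before adjustment), and their sum was 0.551, 0.587 and 2.41 times that of DC Young in DC Old and 1.04, 0.980 and 1.07 times in DC Old-LP. Mast cell and B cell sums were thus lower in DC Old on A and B and higher on C. The neutrophil and granulocyte precursor sum did the same, at 0.506, 0.530 and 1.18 times that of DC Young on A, B and C. Of 11 macrophage markers Fcgr1 was called lower with age and higher with LP, and their sum in DC Old was 0.979 to 1.04 times that of DC Young. The part of these lists in the differences of the members was not tested. On A and B the summed intensity of the 49 members was 45069 and 45788 in DC Young, 31039 and 31712 in DC Dysbiotic, 24669 and 25174 in DC Old, with 41821 and 42465 in DC Old-LP. On C it was 66158, 58187, 54105 and 61858 in the same order of groups. The sum in DC Old was 0.539, 0.559 and 0.818 times that of DC Young on A, B and C.

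**Figure D5:**
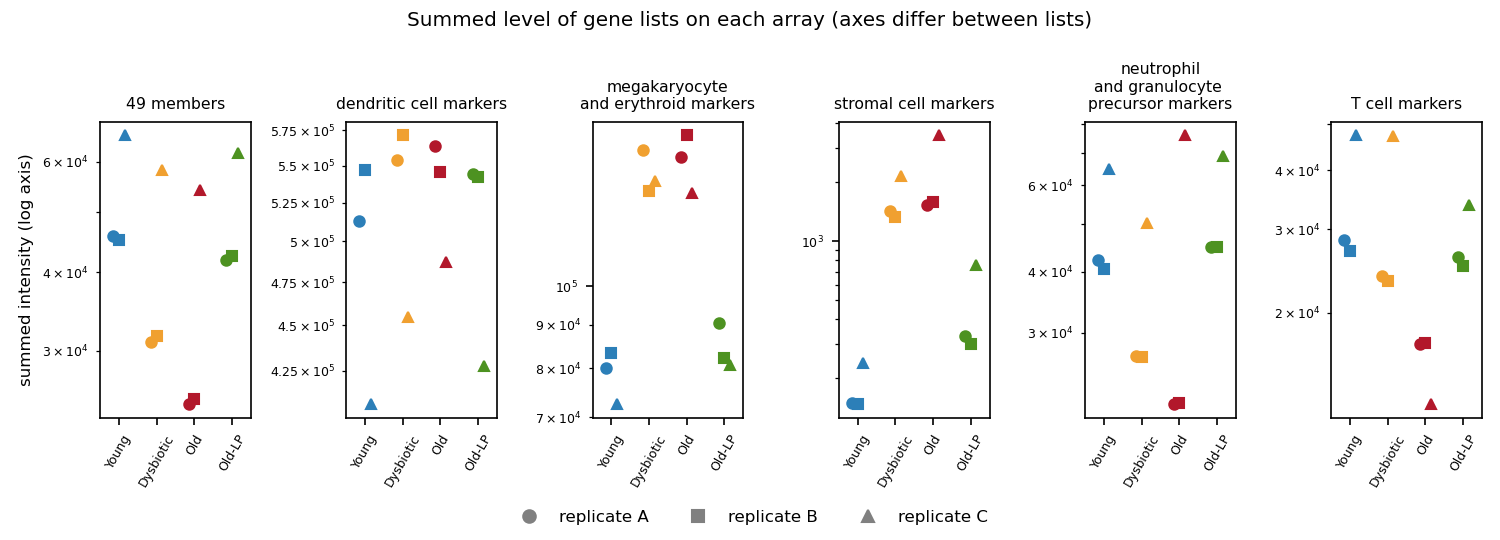
Summed intensity of the 49 members and of 5 lists of cell type markers on each of the 12 arrays, on log axes that differ between panels. Symbols mark the replicate letter. On A and B the members are lowest in DC Old and intermediate in DC Dysbiotic, while megakaryocyte and erythroid and stromal markers are higher in DC Dysbiotic and DC Old than in DC Young and DC Old-LP on all arrays.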

How the data were processed

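RNA of the 12 DC cultures was labelled with Cy3 (500 ng) and hybridised to Agilent single-colour mouse arrays. The deposited scanner files hold an intensity per spot from Feature Extraction, with background subtracted and no normalization between arrays (version 12.1.1.1 per the file headers, 10.5 per the submitters' processing notes), and a table of log2 values for 46302 probes, which by comparison with the scanner values is quantile normalized median signal without background subtraction and which was used here as an alternative.

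From the intensity, 59305 spots that are not controls were taken to log2 and quantile normalized, 1068 outlier readings were set to missing, and repeated spots were averaged to 56605 probes. Accessions gave 35405 of the probes 1 of 24232 RefSeq symbols, and each gene was read at its probe with the highest mean. R 4.3.3 with limma 3.58.1 was used. One linear model held the 4 group means and the replicate letter as a block, with p two-sided and adjusted over all probes. The steps were tested on simulated data. Groups came from the labels, and precision is limited by having 3 arrays a group. The study's legends describe independent sets, each from a pool of mice, while A and B of a group lay on 1 slide and were closer to each other than to C, so averaging them was tried as an alternative.

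As a check of pairing by letter, each array's deviation from its group mean was correlated with those of arrays in other groups. The same letter gave r of 0.415 to 0.711, A with B 0.449 to 0.570 and C with A or B -0.659 to -0.466, so C stood apart and A was not distinct from B.

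The members and the gene lists were chosen with earlier results of these data known. Members named with all values were the called genes of largest difference, at most 5 a comparison, with every array of 1 of its groups well above background, and 12 well known genes. Other called genes are given by their fit. Promoter sequence is from RefSeq (GRCm38.p6), while the array headers name mm9, so no array coordinates are given. One gene of the DNA replication list is not reported here.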

Additional observations from a re-analysis of the deposited data

How the results depend on the processing

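Directions held under all alternatives for every called member, and calls did not. In DC Old against DC Young, against 11 members called lower, there were 2 without the replicate block, 0 in a fit of the 2 compared groups alone (34 unadjusted), 0 with A and B averaged (25 unadjusted), 18 with the slide as a block, 24 with normexp background correction, 26 in the log2 table of the authors, 27 with a filter on dim probes (of 44 members kept), 20 with an intensity trend, 41 on the first slide alone, 43 with array weights (lowest, 0.119, for C of DC Old), and 2 to 30 with each array left out (2 to 7 without any A or B, 22 without C of DC Old-LP, 30 without C of DC Old). For LP, against 13 called higher, there were 1 without the replicate block, 0 in the 2 groups alone (33 unadjusted), 0 with A and B averaged (17 unadjusted), 22 with normexp, 23 in the authors' table, 23 with the filter, 40 on the first slide, 41 with array weights, and 1 to 28 with each array left out (1 to 7 without any A or B, 8 without C of DC Dysbiotic, 28 without C of DC Old). For LP the share of named genes called higher was 1.18% in the main fit, 0.202% without the replicate block, 2.12% with normexp and 2.63% in the authors' table. It was 4.57% with the filter, 4.91% on the first slide, 4.96% with array weights and 0.206 to 2.42% with each array left out. The filter kept any probe for which 1 group, whichever it was, had all 3 arrays well above background. Of the 44 members kept, 33 were well above background on all 12 arrays, and the rest were not on C of DC Old. Those passed through other groups, so the counts with the filter still include dim readings in DC Old. In the 11 and 13 genes, Ect2 and, for DC Old against DC Young, Ncapg kept the call without any single array. In DC Dysbiotic against DC Young, against 0 (20 unadjusted), there were 37 with array weights, 28 on the first slide, 2 with normexp, 2 in the authors' table, 1 with the filter, 1 with a trend and 0 to 4 with each array left out. In that comparison the share of named genes called lower was 0.264% in the main fit, 5.14% with array weights and 2.84% on the first slide. It was 0.755% with normexp, 1.01% in the authors' table, 1.57% with the filter, 0.549% with a trend and 0.0124 to 1.19% with each array left out. In DC Old-LP against DC Dysbiotic, against 0, there were 29 with array weights (3.28% of named genes called higher) and 11 on the first slide (1.86%). With each array left out there were 0 to 1 (0 to 0.974%). In DC Old against DC Dysbiotic there was 1 with array weights (0.0743% of named genes called lower). Median log2 fold changes moved past their spread between letters in few settings, between DC Old-LP and DC Young (-0.13 under a slide block, -0.23 to 0.064 with each array left out) and for DC Old against DC Dysbiotic (-0.67 to -0.29 with each array left out). All other settings left the counts of called members within 1.5 times. Counts before adjustment moved more without the replicate block and with A and B averaged, from 20 to 4 and 1 for DC Dysbiotic against DC Young, from 14 to 2 and 2 between DC Old-LP and DC Dysbiotic and from 17 to 6 and 9 for DC Old against DC Dysbiotic, and with each array left out they ranged over 6 to 25, 6 to 22 and 11 to 31. The cause of these differences between settings was not tested. The dim C arrays limit the depth, most of all C of DC Old.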
